A study of Danio rerio with 6 samples.

Results

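The subject here is a set of 75 transcripts of whole zebrafish embryos whose level was high at shield stage and at least 16-fold lower by tailbud under the later of the treatment starts, chosen from 13274 genes in the authors' deposited table. A transcript was chosen where its normalized mean in shield embryos treated from 30% epiboly was at least 200, where (shield + 5)/(tailbud + 5) was at least 16 in those embryos, and where the same fold was at least 8 in embryos treated from sphere stage. The maternal regulator genes nanog and cth1 were left out by name. Both also missed the second fold, at 3.31 for nanog and 6.58 for cth1. Of the 75 transcripts, 50 carry a gene name, 11 a clone name and 14 no symbol. Shield and tailbud means of both treatments chose the set, so every value from those 4 groups is a description and carries no test. The harvest at 7-somite stage took no part in the choice.

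The embryos were exposed to SB505124, an inhibitor of the type I receptors of Nodal, activin and TGF-beta signals. Treatment started either at sphere stage or at 30% epiboly. Harvests followed at shield, tailbud and 7 somites, for 6 groups of 1 sample each, with 30 to 60 embryos in a sample. All 6 groups received the inhibitor, and no untreated group was analysed here. Embryos are called epiboly-treated or sphere-treated below, by the start of exposure.

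An early vertebrate embryo runs on messenger RNA that its mother loaded into the egg. When the embryo's own genome is switched on, much of this maternal store is removed by deadenylation and decay, in fish partly through the microRNA miR-430 and readers of modified RNA. A second kind of short-lived message is made by the embryo itself in the blastula and disappears as germ layers form. Germ cells keep some maternal messages that other cells lose. Levels in whole embryos cannot tell fewer cells holding a message from less message per cell, and a normalized level cannot tell loss of RNA from a growing share of other RNA.

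Each value below is an upper-quartile normalized (UQN) mean from the authors' table, given with its deposited standard error (± SE). The grid on which the deposited errors lie fits 3 whole values behind each mean. What separates those 3 values is unknown, so errors and p-values measure only their spread, which may be technical. Where a pair of values is given, the epiboly-treated mean comes first. Depth per sample is unknown. All transcripts of the table sum to between 15311014 and 21048013 in the 6 groups, and shield is the highest of the 3 stages under both treatments. For records with a mean of at least 100, the median relative standard error lay between 2.46% and 5.18% in the 6 groups.

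As a group, the 75 transcripts went from a visible to a very small share of the measured RNA. About 2.56% of the shield level was left at tailbud by the median in epiboly-treated embryos and 6.30% in sphere-treated embryos. The lowest tailbud means were 2 with epiboly treatment and 1 with sphere treatment. No detection limit is known, so whether such messages were still present cannot be told. Their means summed to 152282 in epiboly-treated shield embryos, which was 0.741% of that group's total, and to 4229 at tailbud and 3836 at 7-somite. In sphere-treated embryos the sums were 90913, 5011 and 4037. A few abundant transcripts carried most of the shield signal: the 2 highest held 25.8% of the epiboly-treated sum and the 10 highest held 56.5%. The fold from shield to tailbud had a median of 30.0 and a highest value of 154 in epiboly-treated embryos, and a median of 12.3 and a highest value of 94.3 in sphere-treated embryos. Over all 13274 genes the medians were 1.14 and 1.17. Falls of at least 16-fold were seen for 0.874% of all genes in epiboly-treated embryos and falls of at least 8-fold for 0.957% in sphere-treated embryos, and these folds are what the choice rests on.

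**Figure D1:**
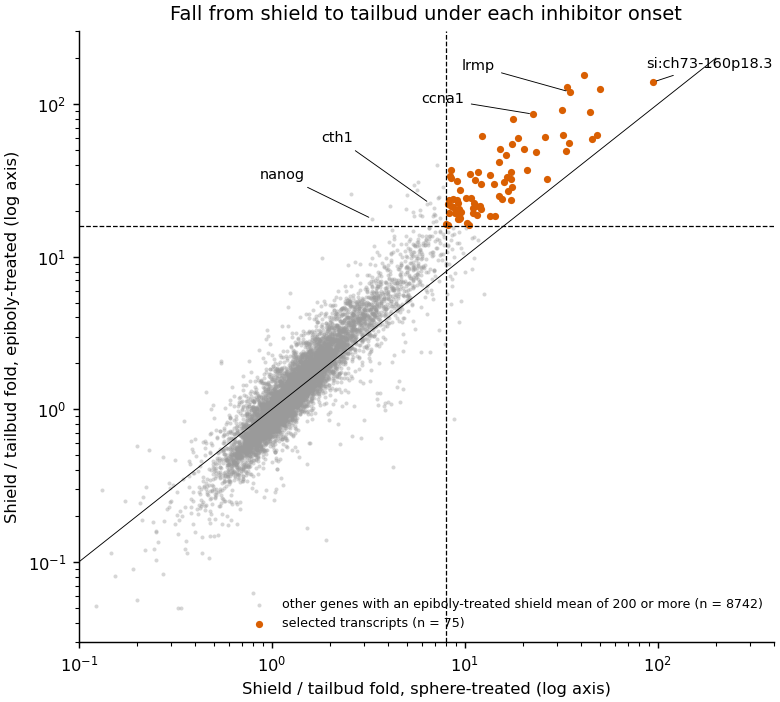
Fold from shield to tailbud, (shield + 5)/(tailbud + 5), in sphere-treated (x axis, log) and epiboly-treated embryos (y axis, log) for every gene with an epiboly-treated shield mean of at least 200. Orange points are the 75 chosen transcripts, dashed lines the folds of 8 and 16 that bound the choice, and the solid line marks equal folds; all 75 lie above it, and nanog and cth1 lie left of the fold of 8.

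The limits cut through a continuous distribution. Nearest inside the shield minimum of 200 were rab6ba at 219 and 124 at shield, 5 and 9 at tailbud, and 5 and 5 at 7-somite, larp6b at 241 and 89, 4 and 5, and 3 and 2, and hic1 at 245 and 100, 2 and 4, and 4 and 3. Nearest outside were a transcript without a symbol at 196 and 117, 6 and 10, and 3 and 3, fhdc3 at 189 and 67, 4 and 3, and 2 and 3, and cntn5 at 162 and 76, 1 and 2, and 2 and 1.

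The smallest folds inside the epiboly-treated limit were those of lrrfip1b (16.1), lemd1 (16.2) and zgc:66479 (16.4). lrrfip1b stood at 365 ± 25.1 and 394 ± 48.4 at shield, 18 ± 3.18 and 33 ± 5.13 at tailbud, and 3 ± 1.76 in both groups at 7-somite, and zgc:66479 at 2748 ± 6.56 and 1723 ± 247, 163 ± 21.5 and 210 ± 58.4, and 70 ± 8.67 and 91 ± 9.26. Just outside it stood sun2 (fold 15.5), at 567 and 427, 32 and 45, and 7 and 12 over the 3 stages, hnmt (15.45), at 304 and 148, 15 and 10, and 23 and 9, and LOC101884738 (14.6), at 331 and 93, 18 and 7, and 24 and 13.

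The sphere-treated limit of 8 was met narrowly by zgc:66479 (8.04), fam113 (8.16) and lemd1 (8.23), with fam113 at 391 ± 4.58 and 150 ± 43.8, 13 ± 2.73 and 14 ± 2.03, and 11 ± 1.73 and 15 ± 3.18. It was missed narrowly by map1lc3c (7.74), at 456 and 173, 11 and 18, and 8 and 6, by snai2 (7.41), at 2684 and 1559, 146 and 206, and 969 and 1222, and by patl2 (7.33), at 216 and 61, 4 and 4, and 2 and 3. Of these, snai2, which encodes a repressor of the Snail family, was high again at 7-somite. In all, 26 genes with the shield minimum passed the epiboly-treated fold and missed the sphere-treated one, and 34 did the reverse.

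The largest signal belonged to transcripts without a gene name in the annotation used. The most abundant of the 75, a record without a symbol, stood at 21941 ± 676 with epiboly treatment and 17382 ± 693 with sphere treatment at shield, at 926 ± 36.3 and 992 ± 42.5 at tailbud, and at 420 ± 22.5 and 453 ± 9.82 at 7-somite. Next came si:ch73-160p18.3, at 17274 ± 344 and 12449 ± 722 at shield, 119 ± 13.9 and 127 ± 16.8 at tailbud, and 56 ± 2.73 and 49 ± 2.19 at 7-somite. The fold of si:ch73-160p18.3, 94.3, was the largest of the 75 in sphere-treated embryos. These ranks rest on the added 5. Without it, the smallest share of the shield mean left at tailbud was that of b4galnt4b with sphere treatment (0.510%). With epiboly treatment it was that of mctp2b (0.401%). The largest fold in epiboly-treated embryos, 154, was that of si:dkeyp-114g9.1, which kept 0.586%. With epiboly treatment it went from 7854 ± 93.6 to 46 ± 6.39 and then 10 ± 1.2, and with sphere treatment from 4612 ± 777 to 107 ± 30.0 and then 8 ± 2.0. It is also the 1 transcript of the 75 that was at least 2-fold higher with sphere treatment at tailbud on the (mean + 5) scale. si:dkey-229d11.5 kept more, with 7190 ± 101 and 5515 ± 252 at shield, 384 ± 43.2 and 404 ± 8.02 at tailbud, and 212 ± 5.49 and 186 ± 1.67 at 7-somite. zgc:173816 was at 6553 ± 187 and 2474 ± 709 at shield, 104 ± 4.18 and 126 ± 5.70 at tailbud, and 86 ± 13.5 and 80 ± 6.96 at 7-somite. Among clone-named transcripts, the relative gap between treatments at shield was widest for si:dkey-11o15.10, at 715 ± 15.7 and 155 ± 83.2, with 4 ± 2.0 and 4 ± 1.2 at tailbud and 1 ± 0.667 in both groups at 7-somite. Further clone-named transcripts had epiboly-treated shield means of 881 ± 71.4 (zgc:153911), 402 ± 2.40 (zgc:64022) and 392 ± 6.89 (zgc:195245), and zgc:66479, zgc:173742 and zgc:112332 are described elsewhere.

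The 14 transcripts without a symbol had epiboly-treated shield means from 447 to 21941. Of these, 3 have consecutive accessions but separate gene identifiers, and whether they share reads was not tested. The first of them was at 5183 ± 142 and 1966 ± 659 at shield, 52 ± 8.96 and 57 ± 5.17 at tailbud, and 44 ± 5.81 and 40 ± 6.57 at 7-somite. The next was at 3869 ± 148 and 1417 ± 433, then 25 ± 4.18 and 37 ± 1.15, then 19 ± 3.53 and 24 ± 1.73, a fold of 129 with epiboly treatment. The last, at 1589 ± 29.6 and 594 ± 173 at shield, stood at 21 ± 4.98 and 18 ± 3.79 at tailbud and 10 ± 0.667 and 10 ± 2.65 at 7-somite. In all 3 the sphere-treated shield mean was close to the same share of the epiboly-treated one, 37.9%, 36.6% and 37.4%. Other members had similar shares, such as zgc:173816 (37.8%), hpcal1 (37.7%) and h1m (36.6%), so nothing is read from this likeness. A further record without a symbol, with a fold of 88.7, was at 2123 ± 112 and 704 ± 210, then 19 ± 4.41 and 11 ± 2.85, then 26 ± 6.0 and 14 ± 4.98. Another, with a fold of 63.1, was at 1950 ± 43.8 and 1406 ± 364, then 26 ± 0.882 and 24 ± 3.06, then 21 ± 0.333 and 29 ± 9.21.

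Role groups were written by hand with the members known. Genes of the cell cycle, chromatin and nuclear envelope had the highest median fold of the role groups with epiboly treatment, but not with sphere treatment. The 6 genes of this group had epiboly-treated folds from 16.2 to 120 with a median of 46.4. Their sphere-treated folds ran from 8.23 to 34.9 with a median of 15.1. That median was below those of metabolic and glycosylation enzymes (17.5) and of kinase and intracellular signalling genes (17.1). h1m encodes a linker histone of the egg and early embryo that is later replaced by somatic forms. Its means with epiboly and sphere treatment were 4952 ± 156 and 1810 ± 433 at shield, 92 ± 13.0 and 114 ± 18.2 at tailbud, and 35 ± 3.71 and 50 ± 2.03 at 7-somite. ccna1, the cyclin A gene of germ line and early embryo, was at 1971 ± 95.3 and 672 ± 226 at shield, 18 ± 1.0 and 25 ± 2.73 at tailbud, and 9 ± 2.85 and 13 ± 1.86 at 7-somite. wee2 encodes an oocyte kinase that restrains Cdk1. It stood at 887 ± 48.4 and 291 ± 89.2, then 19 ± 1.86 and 30 ± 1.76, then 15 ± 1.67 and 12 ± 0.882, in the same order of stages. For these 3 genes the sphere-treated mean was 36.6%, 34.1% and 32.8% of the epiboly-treated one at shield, and it was the higher of the pair at tailbud.

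lrmp is known in zebrafish as the maternal-effect gene futile cycle, needed to attach the nucleus to the centrosomes in the zygote. Its fold of 120 was the steepest of this group, from 1317 ± 98.0 to 6 ± 1.33 with epiboly treatment beside 344 ± 137 to 5 ± 2.0 with sphere treatment, with 8 ± 1.45 and 5 ± 1.67 left at 7-somite. morc3b, of the MORC family of nuclear ATPases, had 537 ± 29.5 and 130 ± 68.0 at shield and 8 ± 2.0 and 4 ± 1.86 at tailbud. lemd1, of the LEM-domain family of nuclear envelope proteins, was the shallowest, with 1047 ± 29.2 and 579 ± 122 at shield, 60 ± 7.22 and 66 ± 11.1 at tailbud, and 29 ± 3.46 and 33 ± 7.22 at 7-somite.

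Some genes of the egg or germ line, such as h1m, ccna1, wee2 and pabpn1l, were placed in other role groups. The role group of egg and germ line held 4 further genes, with epiboly-treated shield means from 317 to 683. Their products include parts of the egg coat and of the germ cell's defence against transposons. piwil1, which encodes the Piwi protein Ziwi, was at 660 ± 20.2 and 391 ± 91.1 at shield, 26 ± 2.0 and 28 ± 1.2 at tailbud, and 62 ± 5.77 and 63 ± 4.06 at 7-somite. On the (mean + 5) scale it is thus 1 of 8 of the 75 that were at least 2-fold higher at 7-somite than at tailbud under both treatments. gpat2, a glycerol-3-phosphate acyltransferase gene active in the germ line of mice, was at 683 ± 10.99 and 361 ± 118, then 15 ± 2.03 and 22 ± 5.29, then 15 ± 2.85 and 17 ± 2.96. The egg-coat genes zp3d.1 (398 ± 34.9 and 161 ± 33.6) and zp3c (317 ± 10.1 and 154 ± 24.4) went to 12 ± 3.0 and 15 ± 4.51, and to 12 ± 5.49 and 12 ± 0.577. Both stood below 10 in each 7-somite group.

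Regulators of RNA formed a further group of 5, with epiboly-treated folds from 20.9 to 35.7. msi2b, a Musashi RNA-binding protein gene, was at 685 ± 25.2 and 327 ± 68.4 at shield, 28 ± 5.24 and 25 ± 3.61 at tailbud, and 79 ± 17.5 and 62 ± 3.71 at 7-somite. pabpn1l encodes a poly(A)-binding protein of the egg, which in mice is needed for the removal of maternal messages. It was itself among the 75, at 349 ± 21.3 and 113 ± 32.7, then 10 ± 0.667 and 8 ± 2.40, then 7 ± 1.0 and 5 ± 3.61. The La-related RNA-binding protein gene larp6b went from 241 ± 12.2 and 89 ± 31.8 to 4 ± 1.86 and 5 ± 2.03. The zinc-finger genes znf326 and hic1 were at 410 ± 30.4 and 102 ± 37.8, and at 245 ± 18.7 and 100 ± 36.9, in shield embryos, and at 7 ± 1.0 and 5 ± 1.0, and at 2 ± 1.45 and 4 ± 0.667, at tailbud. hic1 encodes a transcriptional repressor.

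Among receptors and surface proteins, cxcr4b was the most abundant. It encodes the chemokine receptor that guides migrating germ cells and the lateral line primordium, so it is a gene used again later in development. Its means were 5498 ± 143 and 3591 ± 441 at shield, 261 ± 10.7 and 382 ± 20.6 at tailbud, and 402 ± 17.8 and 388 ± 25.4 at 7-somite. The surface glycoprotein gene thy1 was at 1816 ± 22.2 and 1091 ± 190, then 89 ± 5.04 and 127 ± 12.1, then 203 ± 10.5 and 271 ± 21.9. cldnd, a claudin gene, was at 554 ± 28.3 and 189 ± 63.7, then 12 ± 0.882 and 18 ± 3.33, then 9 ± 2.03 and 7 ± 2.0. cxcr4b and thy1 stood at 89 or more in all 4 later groups, and cldnd stood below 20 in all 4. plxnb2b, a semaphorin receptor gene, was at 316 ± 4.91 and 140 ± 40.5 at shield and 10 ± 3.38 and 12 ± 1.45 at tailbud.

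The group of 6 kinase and intracellular signalling genes had epiboly-treated folds from 18.4 to 48.6. dock1 encodes an activator of Rac that acts in cell migration and myoblast fusion. It stood at 4466 ± 234 and 2400 ± 633 at shield, at 87 ± 3.84 and 98 ± 9.29 at tailbud, and at 583 ± 16.8 and 686 ± 17.9 at 7-somite. mylk5, a myosin light chain kinase gene, was at 2400 ± 27.5 and 1686 ± 118, then 126 ± 4.58 and 113 ± 23.0, then 148 ± 14.3 and 134 ± 12.2. The level of dock1 went down and up again, and that of mylk5 stayed near its tailbud value. The other 4 had lower levels. Of these, stap2a, an adaptor gene, had a shield mean of 861 ± 34.1, arhgap45a 590 ± 39.6, the scaffold gene cnksr2b 585 ± 7.84 and pimr129, a Pim-related kinase gene, 324 ± 17.4 in epiboly-treated embryos.

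Genes of vesicle traffic and calcium handling made up the largest group, with 8 members. mctp2b, which encodes a membrane protein with calcium-binding C2 domains, had the steepest fold of the group, 125 with epiboly treatment and 50.3 with sphere treatment. Its means were 1246 ± 22.3 and 498 ± 160 at shield, 5 ± 1.45 and 5 ± 1.0 at tailbud, and 17 ± 6.77 and 10 ± 4.41 at 7-somite. The calpain protease gene capn1a, at 1227 ± 62.4 and 805 ± 97.3 at shield and 50 ± 3.18 and 68 ± 4.91 at tailbud, had 126 ± 5.13 and 176 ± 24.8 at 7-somite. cadps2, a gene of dense-core vesicle release, had 718 ± 10.7 and 377 ± 67.2 at shield, 8 ± 2.85 and 6 ± 2.67 at tailbud, and 25 ± 4.84 and 28 ± 2.33 at 7-somite. The calcium pump gene atp2b1b (456 ± 38.3), the calcium exchanger gene cax1 (410 ± 5.24), the Rab GTPase genes rab3da (385 ± 13.3) and rab6ba (219 ± 6.66) and the calcium sensor gene hpcal1 (247 ± 6.43) had lower epiboly-treated shield means. All 5 stood below 20 in every later group.

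Metabolic and glycosylation enzymes were 5 of the 75, with epiboly-treated folds from 28.6 to 59.1 and a median log2 ratio of sphere-treated over epiboly-treated shield levels of -0.75. aldh18a1, which encodes the first enzyme of proline synthesis from glutamate, was at 3043 ± 74.3 and 1788 ± 222, then 97 ± 12.03 and 121 ± 23.4, then 45 ± 2.0 and 42 ± 6.89. The catalase gene cat was at 1917 ± 37.3 and 1135 ± 251, then 59 ± 5.81 and 89 ± 10.7, then 38 ± 4.62 and 45 ± 10.2. pnp4a, a purine nucleoside phosphorylase gene used later as a marker of iridophores, had 1625 ± 30.3 and 1468 ± 75.8 at shield, 52 ± 14.9 and 79 ± 10.2 at tailbud, and 3 ± 1.76 and 9 ± 1.0 at 7-somite. The glycosyltransferase genes gcnt7 (822 ± 16.7 and 543 ± 65.3) and b4galnt4b (338 ± 62.8 and 196 ± 81.4) were below 10 in both tailbud groups.

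The other 12 genes with a gene name were placed in no group. stard14, a START-domain gene, was at 5070 ± 70.2 and 3011 ± 366 at shield, 283 ± 10.1 and 318 ± 26.5 at tailbud, and 120 ± 13.4 and 148 ± 12.4 at 7-somite. fam169ab was at 2859 ± 79.3 and 1776 ± 269, then 41 ± 5.13 and 50 ± 9.87, then 37 ± 9.21 and 32 ± 8.51. bcas3 was at 1524 ± 45.3 and 958 ± 164, then 23 ± 4.36 and 50 ± 8.41, then 72 ± 8.82 and 87 ± 1.76. Of these 3, stard14 was at less than 0.5 of its tailbud level at 7-somite under both treatments on the (mean + 5) scale, while bcas3 stood higher than at tailbud. The epiboly-treated shield means of the remaining 9 were 1447 ± 136 for mxra5b, 889 ± 17.6 for arl13a, 492 ± 23.1 for mfsd4aa, 391 ± 4.58 for fam113, 365 ± 25.1 for lrrfip1b, 354 ± 5.61 for astn1, 328 ± 13.7 for cep20, 277 ± 7.45 for hapln4 and 259 ± 13.0 for ric3a. In the order of the RefSeq annotation of assembly GRCz12tu, no pair of the 61 transcripts with a symbol were neighbours, and the closest pair had 11 protein-coding genes between them.

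**Figure D2:**
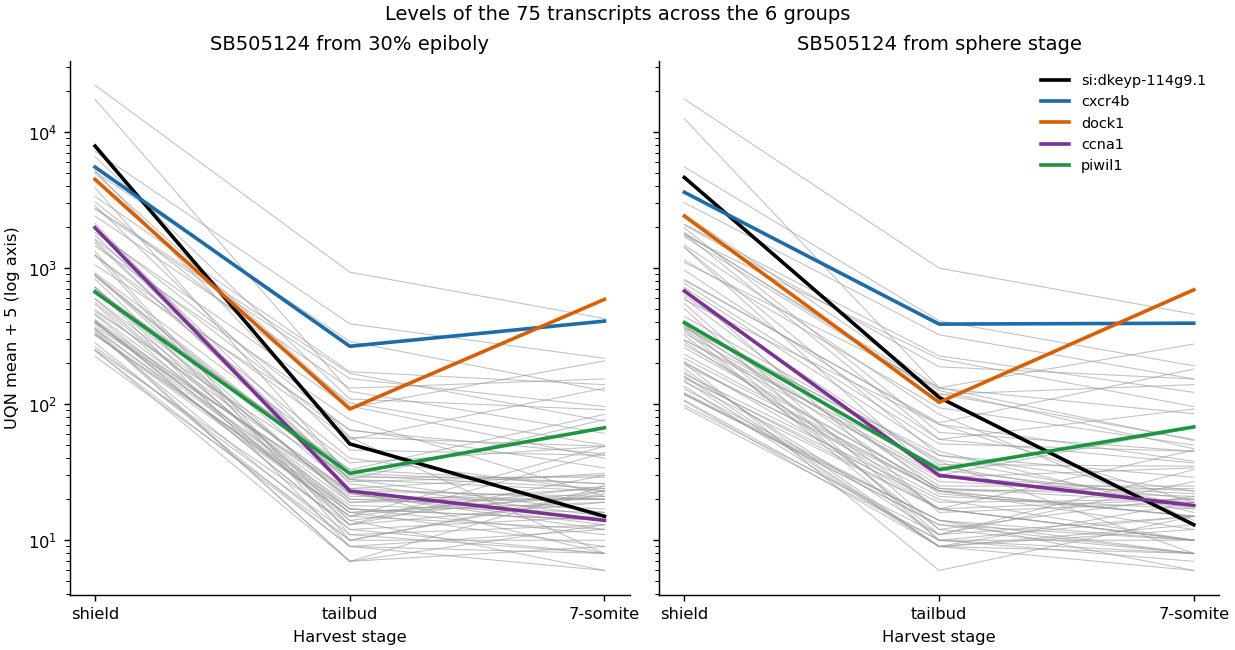
UQN mean + 5 (log axis) of each of the 75 transcripts at shield, tailbud and 7-somite in epiboly-treated (left) and sphere-treated embryos (right). Grey lines are single transcripts and 5 are coloured; dock1 is the 1 that was at least 4-fold higher at 7-somite than at tailbud under both treatments.

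The comparison of treatments at shield asked how the start of inhibition related to the level of these messages while they were still high. The sphere-treated mean was lower for 74 of the 75 and higher for lrrfip1b alone (365 ± 25.1 and 394 ± 48.4), against 48.3% of all genes lower. The sphere-treated mean was lower by more than the sum of both standard errors for 72, against 37.3% of all genes lower by that measure. The median log2 ratio of sphere-treated over epiboly-treated was -0.92 with a range from -2.17 to 0.11, beside 0.01 over all genes. On the (mean + 5) scale the sphere-treated level was at least 2-fold lower for 33 of the 75, against 2.83% of all genes. The authors' deposited table calls 63 of the 75 at a 50% change, against 14.4% of all genes. The same shield means chose the set, with a higher fold asked of epiboly-treated embryos, so nothing is read from these counts.

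Genes differed in the size of this gap. The ratio was most negative for si:dkey-11o15.10 (log2 ratio -2.17), zgc:173742 (-2.10, from 1735 ± 102 to 401 ± 159) and morc3b (-2.01), followed by znf326 (-1.96) and lrmp (-1.92). It was smallest for pnp4a (-0.15) among the genes with a lower mean. The group of cell cycle, chromatin and nuclear envelope genes had a median of -1.57, and that of kinase and intracellular signalling genes -0.70. The spread behind the sphere-treated shield means was wide: their relative standard error had a median of 20.8% over the 75, against 3.06% in epiboly-treated shield embryos and 5.18% for all records at 100 or more in the same sphere-treated group. For most of these transcripts the 3 values behind the sphere-treated shield mean therefore differed among themselves more than this table median. Some members had narrower errors, such as pnp4a at 1468 ± 75.8. Wide errors were not particular to the set: outside it, nanog was at 1619 ± 506 and piwil2 at 224 ± 61.4. The part of this spread in the gap was not tested.

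**Figure D3:**
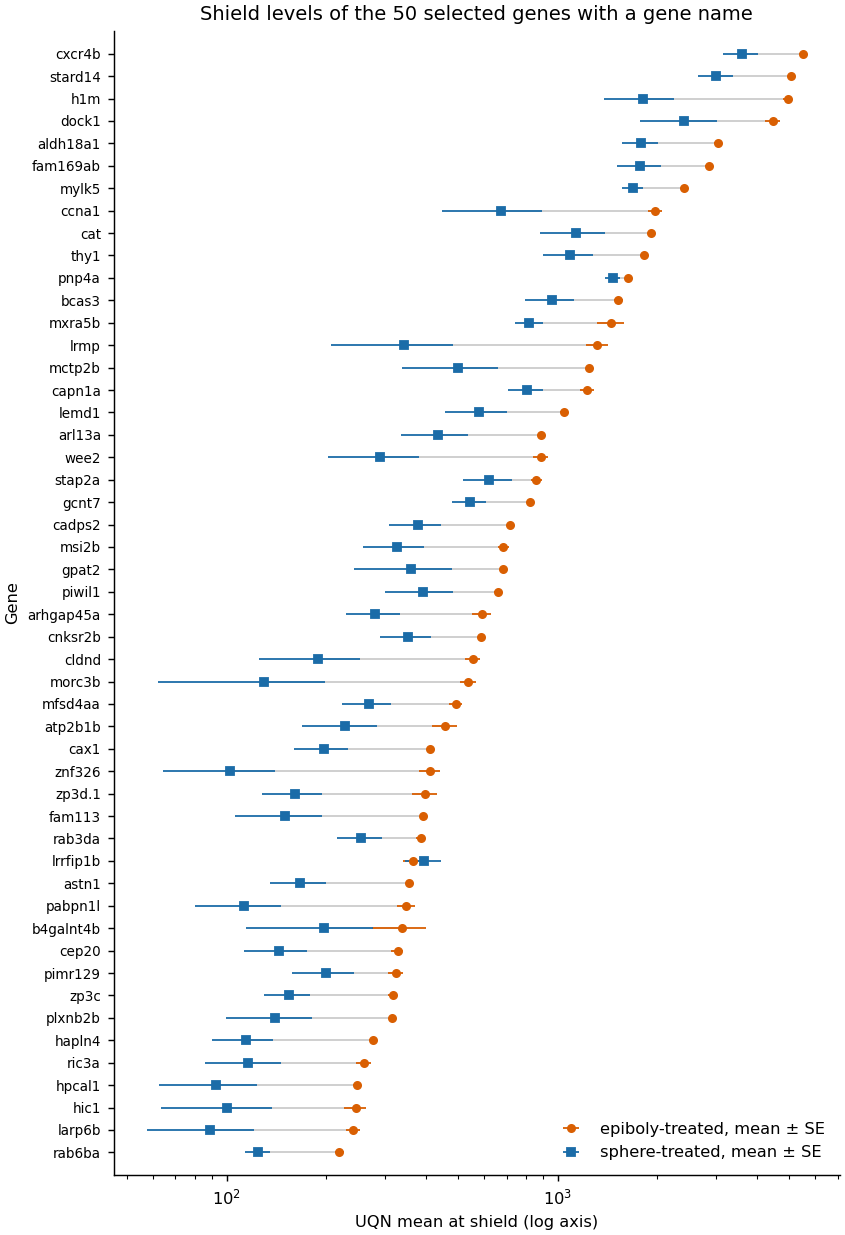
UQN mean at shield (log axis) with the deposited standard error for the 50 chosen genes with a gene name, in epiboly-treated (orange circles) and sphere-treated embryos (blue squares). The sphere-treated mean is the lower one for every gene shown except lrrfip1b, and its error bar is usually the longer.

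At tailbud the order of the treatments was the other way for most of the set. The sphere-treated mean was higher for 52, equal for 5 and lower for 18 of the 75, with a median log2 ratio of 0.16 and a range from -0.58 to 1.13. Over all genes 47.1% were higher and 51.3% lower, with a median of -0.01. Of the 32 transcripts with an epiboly-treated shield mean of at least 1000, 25 had the higher tailbud mean in sphere-treated embryos. cxcr4b (261 ± 10.7 and 382 ± 20.6), thy1 (89 ± 5.04 and 127 ± 12.1) and bcas3 (23 ± 4.36 and 50 ± 8.41) were examples in which the gap exceeded the sum of both standard errors, as it did for 22 of the 75, while 3 were lower by that measure, against 18.9% higher and 22.2% lower of all genes. The authors' deposited table calls 0 of the 75 at this stage, against 1.63% of all genes. The fold was smaller in sphere-treated embryos for all 75, and a fold of at least 16 was reached there by 28. Tailbud means also chose the set, with a smaller fold asked of sphere-treated embryos, so nothing is read from these counts either.

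From tailbud to 7-somite most of the set stayed low. The means stood below 20 in both treatments for 35 of the 75 at tailbud and for 40 at 7-somite. The shares of all genes below 20 were not counted, so nothing is read from these counts. On the (mean + 5) scale, 10 went down by at least 2-fold further in both treatments, against 2.6% of all genes, among them h1m, aldh18a1, stard14, pnp4a, mxra5b and lrrfip1b. pnp4a had the smallest ratio of 7-somite to tailbud in epiboly-treated embryos, 0.140, and mxra5b went from 72 ± 9.70 and 66 ± 7.84 to 16 ± 2.65 and 14 ± 0.882. Low tailbud means were part of the choice, so these steps are described and not tested.

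The 7-somite mean was above the tailbud mean under both treatments for 21 of the 75 and below it for 41. A smaller subset stood higher again by a set fold. By a 4-fold size limit in both treatments this was dock1 alone, with ratios of 6.39 and 6.71 on the (mean + 5) scale, and 1.6% of all genes met that limit. At 2-fold, a limit set after the values were seen, there were 8 of the 75 against 5.18% of all genes: dock1, astn1, msi2b, capn1a, cadps2, cep20, thy1 and piwil1. astn1, a gene of neuronal migration, was at 354 ± 5.61 and 167 ± 31.8 at shield and went from 10 ± 2.0 and 6 ± 1.45 at tailbud to 44 ± 20.6 and 22 ± 5.29, with a wide error in epiboly-treated embryos. cep20, a centriole and cilium gene, was at 328 ± 13.7 and 144 ± 31.3 at shield and went from 5 ± 0.333 and 4 ± 1.86 at tailbud to 18 ± 4.58 and 14 ± 1.0. None of the 8 came near its shield level: 7-somite means above 10% of the shield mean in both treatments were seen for 5 of the 75.

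The harvest at 7-somite gives the comparison of treatments that did not choose the set. It was tested with limma's moderated variance on the deposited means and errors, adjusted by Benjamini-Hochberg over all 13274 genes at 0.05. Of the 75, 2 were lower and 1 was higher in sphere-treated embryos, against 8.81% lower and 5.91% higher among all genes. Those shares are 1169 lower and 785 higher genes, and with both groups rescaled to equal totals they were 730 lower and 1159 higher. The share called, 3 of 75, was below the 14.7% of all genes called in either direction. Levels were low at this stage: 58 of the 75 were below 50 in both groups, against 665 of all 13274 genes. Of those 665 genes, 7.97% were called, beside 3 of the 58 members (5.17%). At 50 or more, 0 of 17 members were called in this test, against 15.1% of all genes at that level. The cause of the lower share was not tested. The median log2 ratio of the 75 was -0.09, beside -0.02 over all genes, and the authors' deposited table calls 0 of the 75, against 1.36% of all genes.

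With sphere treatment morc3b was lower, at 8 ± 2.65 against 39 ± 2.65 with epiboly treatment (log2 ratio -1.76, SE 0.242, limma adjusted p = 0.011). plxnb2b, at 20 ± 1.73 with epiboly treatment, was higher with sphere treatment at 41 ± 3.0 (log2 ratio 0.88, SE 0.124, limma adjusted p = 0.012). The other gene, znf326, was lower at 3 ± 0.882 against 10 ± 2.33 (log2 ratio -0.91, SE 0.219, limma adjusted p = 0.040), at a level near the bottom of the table. The mean ± SE ranges do not overlap for any of the 3 genes, and for znf326 both means are near the lowest values of the table. Without limma's moderation of the variance none of the 3 passed, at an adjusted p of 0.059 for morc3b, 0.052 for plxnb2b and 0.13 for znf326. The znf326 call was also lost with a pseudocount of 20 (0.056), a spread pooled over the 6 groups (0.062) or a variance trend (0.061), all limma adjusted p. An unadjusted p below 0.05 was found for 15 of the 75, against 35.4% of all genes.

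Most of the genes described above did not pass this test. For zgc:112332 the means were 20 ± 3.28 and 7 ± 2.91, with a log2 ratio of -1.06 (SE 0.309) and an adjusted p of 0.062 by limma. For h1m the log2 ratio was 0.46 (SE 0.128), with an adjusted p of 0.056 by limma, and for thy1 it was 0.41 (SE 0.122), with 0.066. These 3 passed under some settings: h1m and thy1 with equal totals, h1m among genes at 50 or more, zgc:112332 with a pseudocount of 20, a pooled spread or a trend, and thy1 with the trend. For dock1 the log2 ratio was 0.23 with a standard error of 0.0785 (limma adjusted p = 0.086). cxcr4b (-0.05, SE 0.108), piwil1 (0.02, SE 0.133), ccna1 (0.36, SE 0.259) and wee2 (-0.23, SE 0.126) had limma adjusted p of 0.77, 0.92, 0.35 and 0.23. The mean ± SE ranges overlap for cxcr4b, piwil1 and ccna1 and lie just apart for wee2, and a p above the limit does not show that the levels were alike.

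**Figure D4:**
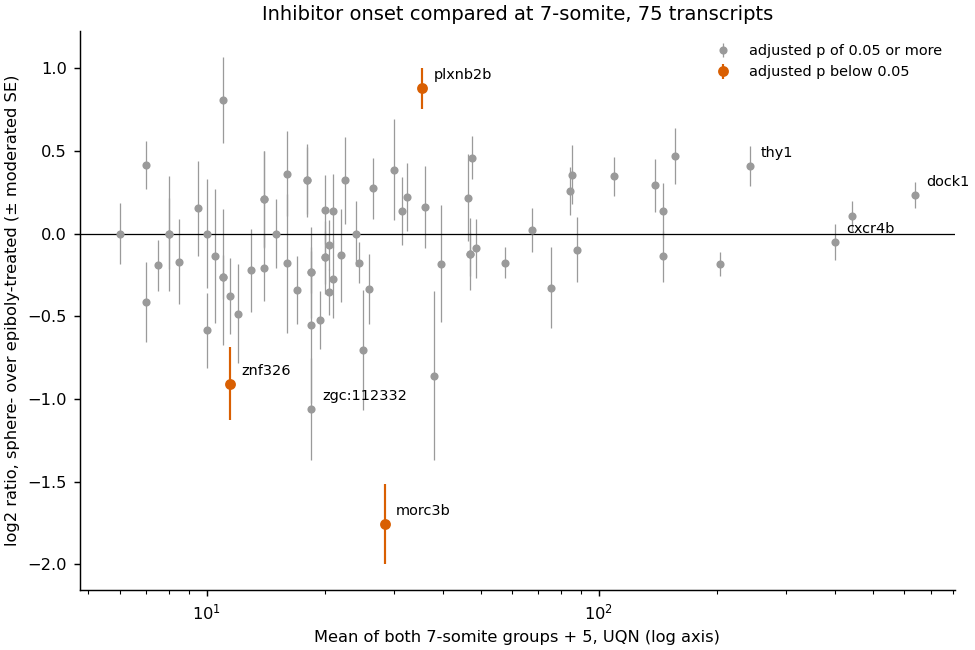
Log2 ratio of sphere-treated over epiboly-treated embryos at 7-somite (y axis, bars are ± the moderated standard error) against the mean level of both groups + 5 (x axis, log) for the 75 transcripts. Orange points, morc3b, plxnb2b and znf326, have an adjusted p below 0.05, and most other points lie at low levels around 0.

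The chosen transcripts, 0.565% of all genes, were set beside lists of known genes. Over 11 lists with 307 measured genes, 5 genes were among the 75: ccna1, wee2 and h1m of the oocyte and egg list, with the first 2 also on the cell cycle list, piwil1 of the germ plasm and germ cell list, and cxcr4b of the list of signals and antagonists. In the oocyte and egg list the median epiboly-treated fold was 3.41 over 25 genes, beside 1.14 over all genes. Outside the 75, the list ranged from pabpc1l, an oocyte poly(A)-binding protein gene at 502 and 22 (fold 18.8), and npm2a at 121 and 3 (fold 15.75) to h1-10 at 56 and 251 (fold 0.238). The egg-coat gene zp2.1 was at 6231 ± 48.8 at shield and 2028 ± 123 at tailbud with epiboly treatment, a fold of 3.07. In the germ plasm and germ cell list the median was 4.92 over 16 genes, with ddx4, the Vasa gene of germ cells, at 4062 in epiboly-treated shield and 474 in tailbud embryos (fold 8.49), nanos3 at 602 and 277 (fold 2.15) and dnd1 at 400 and 130 (fold 3.0). Steeper folds on this list were those of piwil2 at 492 and 19 (fold 20.7), buc at 151 and 7 and tdrd9 at 1828 and 136 (fold 13.0 for both), beside piwil1 at 660 and 26 (fold 21.5). In all, 2 of the 16 reached 16-fold, against 0.874% of all genes. These folds use the same means that chose the set, so the count is a description.

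Lists of blastula, enveloping layer, mesoderm and neural genes had lower median folds with epiboly treatment. Which messages of any list the mother supplied was not tested, and krt8 is on both the oocyte and the enveloping layer list. The median epiboly-treated fold was 0.799 over 64 blastula transcription factor genes, 0.691 over 22 genes of the enveloping layer, 0.188 over 13 paraxial mesoderm genes and 0.0538 over 14 neural plate genes, where a fold below 1 means a higher level at tailbud. No gene of these 4 lists was among the 75, and with 0.565% of all genes chosen nothing is read from that. mxtx2, a regulator of the yolk syncytial layer, was at 222 and 4 with epiboly treatment but had a sphere-treated fold of 5.0. Activators of the zygotic genome had a median of 1.86 over 12 genes, with pou5f3 at 45253 at shield and 4613 at tailbud (fold 9.80) and eomesa at 217 and 7 (fold 18.5). The medians were 1.75 over 39 cell cycle genes, 1.02 over 31 signal and antagonist genes and 0.3 over 21 yolk syncytial layer genes. With sphere treatment the order differed: the median was 1.52 for paraxial mesoderm and 1.02 for blastula genes, beside 1.51 for cell cycle genes. Sphere-treated medians stayed below 1 for the enveloping layer (0.873) and neural plate (0.234) lists.

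**Figure D5:**
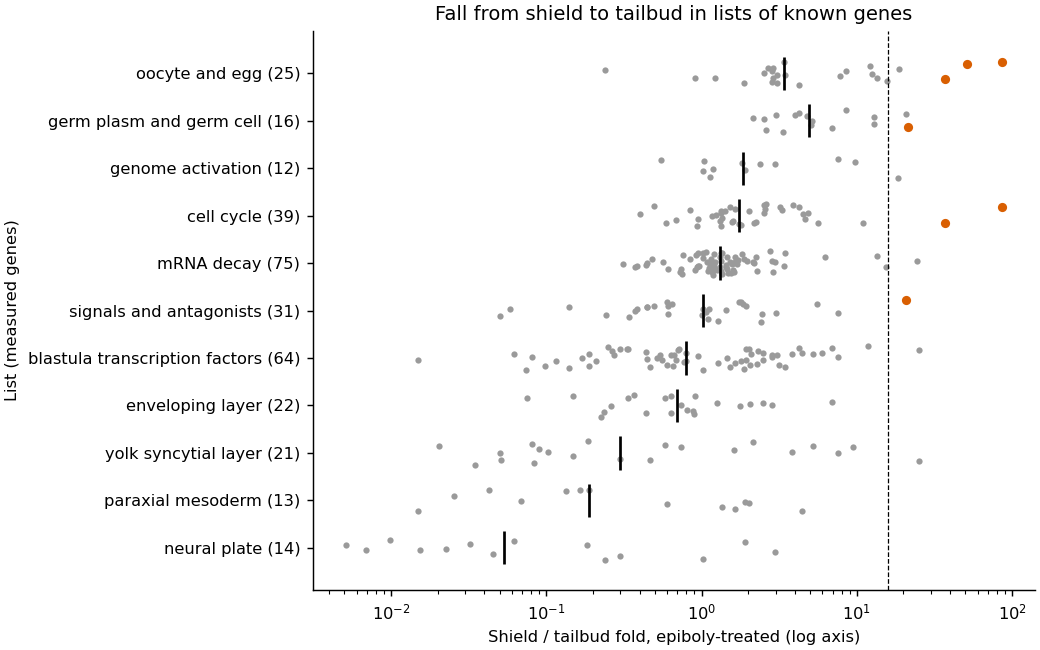
Fold from shield to tailbud in epiboly-treated embryos (x axis, log) for measured genes of 11 lists; grey points are genes, orange points are genes among the 75, black bars are list medians and the dashed line is the fold of 16. The medians of the oocyte, germ cell, genome activation, cell cycle, mRNA decay and signals lists lie above 1. Those of the blastula, enveloping layer, yolk syncytial layer, paraxial mesoderm and neural plate lists lie below it. Most lists have single genes on either side.

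A list of genes of message decay and related RNA regulation was set beside the chosen transcripts. The list covers deadenylation, decapping, other decay steps, microRNA action, and writers and readers of modified RNA. It also holds RNA-binding protein genes such as ybx1, elavl1a and igf2bp1. Of its 75 measured genes, none was among the 75 chosen transcripts, and with 0.565% of all genes chosen nothing is read from that. The median epiboly-treated fold of the list was 1.32. The list's steepest folds were those of patl2 (24.6), lsm14b (15.5) and btg4 (13.5), whose means went as follows with epiboly treatment: patl2 from 216 to 4, lsm14b from 290 to 14 and btg4, which encodes an adaptor of the deadenylase, from 130 to 5. ythdf2, a reader of modified RNA with a known part in maternal clearance in zebrafish, was at 4970 and 2911 and xrn1, the cytoplasmic 5′ exonuclease gene, at 4205 and 1451. In the test at 7-somite, 10 of these 75 genes were lower and 5 higher in sphere-treated embryos, with a median log2 ratio of -0.05, against 8.81% lower and 5.91% higher among all genes. Among the lower ones, ythdf2 was at 1903 ± 42.4 against 2302 ± 34.8, and its log2 ratio was -0.27 (SE 0.0725) with an adjusted p of 0.049 by limma. This is just under the limit of 0.05, and calls of these lists under the other settings are not given. In the germ plasm list 1 of 16 was lower (tdrd1) and 1 higher (kop), and in the oocyte list 1 of 25 was lower (zar1l) and 1 higher (cnot6l), to be read against the same shares of all genes.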

How the data were processed

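The authors deposited 1 table for the series. Per the file headers it holds upper-quartile normalized means per group, whole-number scores and not raw counts, a standard error as a score on the same scale, a ratio for each stage (epiboly-treated over sphere-treated) and a yes or no call at a 50% change. The submitters' processing notes list DESeq 1.6.1 but not what it did. Aligner, counting tool and genome build: not given in the sources used here.

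Of 13321 records, 12182 matched a RefSeq symbol (GRCz12tu, names only) by gene identifier and 42 by accession, and 47 duplicate records were set aside. The highest group mean of every record is at least 101. Whether each mean rests on 3 values was read from the errors: of 11992 that are above 0 and below 5, 11992 can arise from 3 whole values within 0.00051, where 9.36% would by chance, so 4 degrees of freedom per gene were used. Log2 ratios use mean + 5, which understates changes of low genes. The 7-somite test took variances from the deposited errors by the delta method, moderated with limma 3.58.1 squeezeVar, two-sided. It was also run on simulated data, with changes planted only above a minimum mean and the same spread setting for all genes. That run does not cover the lowest members, such as znf326, and its outcome is not given here. The labels list 1 sample per group.

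The members, lists and role groups were chosen with earlier results of these data known. Values in all 6 groups are printed for: the 10 highest at shield, the 10 steepest, members on a list, those called at 7-somite, those at least 4-fold higher there than at tailbud, and those nearest a threshold (means only for genes outside it). Further members were added by role after their values were seen, and records without a symbol are not named. Paralogs may share reads. Promoter motifs were not analysed here. Alternatives covered pseudocount, scaling, moderation, pooled spread, a minimum level and the limits of the rule.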

Additional observations from a re-analysis of the deposited data

How the results depend on the processing

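The number of chosen transcripts, 75, depends on the limits: it was 41 with a pseudocount of 20, 257 with folds of 8 and 4, 25 with folds of 32 and 16, 28 with a fold of 16 in both treatments and 47 after rescaling every group to 1 common total. At 7-somite, without moderation 245 genes were higher and 452 lower and 0 of the 75 were called in either direction (7 had an unadjusted p below 0.05 by the same unmoderated test). Groups rescaled to equal totals gave 730 genes lower and 3 of the 75 higher. With a variance trend, added after seeing the data, 1256 genes were higher and 1787 lower, and 2 of the 75 were higher. With a minimum mean of 50 in a 7-somite group 17 of the 75 were tested, 0 were lower, and their median log2 ratio was 0.14 against -0.09 over all 75. The cause of these differences was not tested. Under the other settings run, counts stayed within 1.5 times. No paired analysis was possible because the table gives means and no replicate values, and leaving out a replicate was not possible for the same reason. Unknown depth and low 7-somite levels limit what small differences can show.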
